A study of Homo sapiens with 14 samples.

Results

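This account covers 5 neighbour pairs of human genes, GDPD1/YPEL2, BANK1/NFKB1, TTC39C/CABYR, RNF13/PFN2 and AFAP1L1/PCYOX1L, that is 10 genes of the 16098 probe sets that the platform annotation names (14884 symbols). Each of the 10 genes had 1 probe set. The pairs were chosen because both genes were higher after CTCF siRNA than after control siRNA at 144 h, so their 144 h values are given as a description, and only the other arrays bear on a test. Expression was measured on Affymetrix Human Gene 2.0 ST arrays in LNCaP, a long-established prostate cancer cell line that responds to androgen. The 14 arrays form 7 groups of 2: untransfected cells, whose labels give no time, and cells given 20 nM of a pool of control siRNA (non-targeting) or of CTCF siRNA for 24, 72 or 144 h. Cells of the 144 h groups were split at 72 h and transfected a further time. The study calls the arrays of a group biological duplicates. The design therefore covers 1 cell line, 1 siRNA pool against CTCF and no rescue of CTCF. The p-values rest only on the spread between the 2 arrays of a group. That spread is pooled over all groups of a fit and drawn toward a value common to all probe sets.

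CTCF, a DNA-binding protein with many zinc fingers, acts with cohesin at the borders of chromatin domains, and the study asked what its loss does to gene expression. Genes that lie next to each other often share a domain, and neighbours can therefore be reached by the same enhancers. The paired genes themselves have different roles. NFKB1 encodes p105 and its product p50, a DNA-binding subunit of NF-kB, and BANK1 is a scaffold of B cell receptor signalling. GDPD1 is a lysophospholipase D and YPEL2 a zinc-binding protein of the Yippee family. PFN2 is a profilin that binds actin monomers and RNF13 a ubiquitin ligase of endosomes and lysosomes. AFAP1L1 binds actin filaments and PCYOX1L resembles prenylcysteine oxidase. CABYR is a calcium-binding protein of the sperm fibrous sheath, and TTC39C carries tetratricopeptide repeats.

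The arrays were alike in scale, with medians of 3.67 to 3.72 and correlations of 0.992 to 0.994 between replicates. Values are RMA log2 values, and all differences are log2 differences, CTCF siRNA minus control siRNA unless said otherwise. Levels of different genes are compared only roughly, as percentiles or mean levels, because probes differ in brightness. A percentile therefore does not show whether a gene is expressed. Of the luminal prostate markers, 6 of 9 were named on the array, at a median percentile of 96.2 among the named probe sets, and FOLH1 alone of them was called at 144 h (−0.61 ± 0.11, adjusted p = 0.0138, and 0.0821 to 0.115 without any 1 of the 4 arrays). The luminal percentiles ran from 62.1 for KRT8 to 99.6 for FOLH1. Fibroblast markers lay lower, with both measured markers at percentiles 2.1 and 6.76 and neither called. CTCF itself lay at 8.78 to 9.19 in the untransfected and control siRNA arrays and at 6.73 to 7.46 in the CTCF siRNA arrays, without overlap, and differed by −2.07 ± 0.18 at 24 h, −1.72 ± 0.18 at 72 h and −2.24 ± 0.18 at 144 h (log2, limma SE, n = 2 arrays per group; adjusted p = 0.00573, 0.00618 and 0.000137). The direction held in every alternative, but the call at 24 h was lost with all rows tested (adjusted p = 0.135) and without either control array or the first CTCF siRNA array (0.056 to 0.196), and the call at 72 h with all rows (0.0519), with the 4 arrays of that time alone (0.137) and without either control array or the second CTCF siRNA array (0.0628 to 0.128). At 144 h the adjusted p was 0.00182 to 0.00393 without any 1 array. Each array holds RNA of a whole culture of this 1 cell line, so a change in every cell and a change in some cells cannot be told apart.

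Promoters from the RefSeq table (GRCh38.p14) were found for 9 of the 10 genes, 13 promoters in all. PFN2 was not matched. All 13 lie on the plus strand. To show what the neighbours share and do not share, the 250 bases before the start are printed for GDPD1 (chr17:59220261-59220510) and YPEL2 (chr17:59331405-59331654), the pair with the largest rise, for the first promoter of CABYR (chr18:24138812-24139061), which has a TATA box word, and for AFAP1L1 (chr5:149271609-149271858), which has a CTCF core word. Capitals mark TATAAA in CABYR and AGGGGGC in AFAP1L1.
GDPD1: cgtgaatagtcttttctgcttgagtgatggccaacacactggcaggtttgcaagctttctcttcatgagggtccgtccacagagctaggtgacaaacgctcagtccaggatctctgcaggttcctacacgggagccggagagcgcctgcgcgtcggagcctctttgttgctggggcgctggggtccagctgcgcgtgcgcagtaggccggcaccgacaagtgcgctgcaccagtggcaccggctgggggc
YPEL2: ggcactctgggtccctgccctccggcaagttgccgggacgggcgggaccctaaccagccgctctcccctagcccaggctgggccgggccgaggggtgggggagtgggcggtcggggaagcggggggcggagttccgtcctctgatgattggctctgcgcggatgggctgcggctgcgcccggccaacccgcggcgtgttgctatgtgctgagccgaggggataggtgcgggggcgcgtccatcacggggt
CABYR: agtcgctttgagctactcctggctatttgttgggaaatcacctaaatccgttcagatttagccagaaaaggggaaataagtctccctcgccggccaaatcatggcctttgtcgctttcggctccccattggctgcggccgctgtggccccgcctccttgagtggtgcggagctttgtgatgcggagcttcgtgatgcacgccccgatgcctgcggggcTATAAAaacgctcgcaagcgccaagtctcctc
AFAP1L1: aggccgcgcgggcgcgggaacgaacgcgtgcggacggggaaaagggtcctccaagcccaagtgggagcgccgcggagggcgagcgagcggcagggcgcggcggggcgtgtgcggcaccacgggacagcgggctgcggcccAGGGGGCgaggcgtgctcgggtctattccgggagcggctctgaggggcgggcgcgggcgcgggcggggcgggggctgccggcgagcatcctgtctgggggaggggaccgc
The words searched were 4 short cores of the CTCF motif on both strands, over 300 bases that include 50 after the start: AGAGGGC, held by 8.5% of all RefSeq promoters given, AGATGGC, held by 5.41%, AGGTGGC, held by 6.76%, and AGGGGGC, held by 14.4%. TATAAA was searched on the plus strand. AGGGGGC was found in AFAP1L1 and, after the start and clear of TATAAA, in the first CABYR promoter, and the other 11 promoters held none of the 4 words. Of all 35116 RefSeq promoters given, 30.5% held at least 1 of these words. TATAAA was found in the first CABYR promoter alone, against 7.33% of all promoters. The number of CpG dinucleotides ran from 5 in the second BANK1 promoter to 47 in AFAP1L1, where the median of all promoters was 14. These are matches of letters, and no binding was measured here.

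GDPD1 and YPEL2 had the largest differences of the 10 genes at 144 h. GDPD1 measured 6.52 and 6.43 in untransfected cells, 6.48 and 6.15, 6.56 and 6.57, and 6.35 and 6.79 with control siRNA at 24, 72 and 144 h, and 6.54 and 6.68, 7.13 and 7.09, and 7.80 and 7.81 with CTCF siRNA at the same times (replicates 1 and 2). Both CTCF siRNA arrays were thus above both control siRNA arrays at each time, and the values with CTCF siRNA were higher at each later time. YPEL2 measured 5.23 and 5.70 in untransfected cells, 5.11 and 5.46, 5.28 and 5.86, and 5.28 and 5.29 with control siRNA, and 5.53 and 5.66, 5.58 and 6.39, and 7.51 and 6.96 with CTCF siRNA. The replicates of YPEL2 lay wider apart, and at 72 h its groups overlapped. At 144 h, the contrast used to choose the pair, the differences were 1.23 ± 0.16 for GDPD1 and 1.95 ± 0.26 for YPEL2, or 2.35-fold and 3.86-fold, so that the fold of YPEL2 was 1.64 times that of GDPD1. At 72 h GDPD1 differed by 0.54 ± 0.16 (95% interval 0.19 to 0.90; adjusted p = 0.363) and YPEL2 by 0.41 ± 0.26 (−0.16 to 0.99; adjusted p = 0.765), and neither passed limma's test.

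BANK1 and NFKB1 followed each other most closely. BANK1 measured 4.88 and 4.96 in untransfected cells, 5.18 and 5.14, 5.18 and 4.79, and 5.02 and 4.97 with control siRNA at 24, 72 and 144 h, and 5.23 and 5.17, 5.20 and 5.19, and 6.27 and 5.89 with CTCF siRNA. NFKB1 measured 7.21 and 7.26, then 7.44 and 7.44, 7.51 and 7.07, and 7.45 and 7.38, and with CTCF siRNA 7.54 and 7.66, 7.44 and 7.60, and 8.46 and 8.41. Both genes were lowest on the second control siRNA array of 72 h, where they read 4.79 and 7.07, and both had their lowest group mean in untransfected cells. Their differences at 144 h were 1.09 ± 0.13 and 1.03 ± 0.15, or 2.13-fold and 2.04-fold. At 72 h they were 0.21 ± 0.13 and 0.23 ± 0.15 and at 24 h 0.04 ± 0.13 and 0.16 ± 0.15, none past the threshold (adjusted p = 0.768, 0.771, 0.997 and 0.97). Without the low control array the NFKB1 difference at 72 h was −0.01.

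Because BANK1 is best known from B cells, the B cell markers were read beside it. Of 7 markers, 2 were named on the array. CD22, a B cell surface lectin, ran from 4.01 to 5.26 over the 14 arrays and was higher with CTCF siRNA at 144 h, by 1.02 ± 0.19 (adjusted p = 0.0145), whereas PAX5, the transcription factor that sets B cell identity, ran from 2.98 to 3.48 and differed by −0.19 ± 0.13 (adjusted p = 0.543). The mean of both markers was 3.70 with control siRNA and 4.11 with CTCF siRNA at 144 h and 3.94 in untransfected cells. CD22 kept its call without the first CTCF siRNA array of 144 h (adjusted p = 0.0267) and lost it without any 1 of the other 3 (0.077 to 0.128). The part of these markers in the BANK1 values was not tested. Of the adaptors and scaffolds of the B cell receptor other than BANK1, 6 were measured and none passed the threshold at any time, with differences at 144 h between −0.24 and 0.32.

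Outside CTCF siRNA at 144 h, the means of the other 6 groups lay within 0.25 for TTC39C and 0.24 for CABYR. The range was similar for PFN2 (0.24), PCYOX1L (0.27) and BANK1 (0.28). Single CABYR arrays of these groups spread further, from 3.54 to 4.08. TTC39C measured 5.76 and 6.04 in untransfected cells, 5.64 and 5.75, 5.73 and 5.62, and 5.58 and 5.79 with control siRNA, and 5.68 and 5.62, 5.83 and 5.70, and 6.68 and 7.07 with CTCF siRNA at 24, 72 and 144 h. CABYR measured 3.81 and 3.89, then 4.06 and 3.54, 3.86 and 3.75, and 3.61 and 3.88, and with CTCF siRNA 3.69 and 4.08, 3.94 and 4.02, and 4.63 and 4.79. The 2 arrays with CTCF siRNA at 144 h stood 0.65 above the highest other array for TTC39C and 0.55 above it for CABYR. The 144 h differences were 1.19 ± 0.14 and 0.97 ± 0.19, or 2.29-fold and 1.96-fold, while those at 72 h were 0.09 ± 0.14 and 0.17 ± 0.19 (adjusted p = 0.933 and 0.888). CABYR sat at percentile 37.5 of the named probe sets, and its distance from background is not known in these values. Germ cell markers were read beside it: all 7 were measured, and none passed the threshold at any time. Their percentiles were mixed, from 4.5 for DDX4 to 60.1 for SYCP3, with a median of 14.1 and PRM2 at 55.0. Of the other sperm fibrous sheath genes, 8 were measured and 0 passed at 144 h, from −0.48 for ROPN1 to 0.53 for ROPN1L.

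RNF13 and PFN2 had smaller differences. RNF13 measured 8.36 and 8.49 in untransfected cells, 7.93 and 8.08, 8.22 and 8.30, and 8.26 and 8.14 with control siRNA, and 8.13 and 8.08, 8.18 and 8.37, and 8.88 and 8.91 with CTCF siRNA. PFN2 measured 6.15 and 6.15, then 5.93 and 6.09, 6.43 and 6.04, and 5.98 and 6.35, and with CTCF siRNA 6.10 and 6.20, 6.14 and 6.36, and 7.02 and 6.99. In both genes the 72 h groups overlapped, and both CTCF siRNA arrays were above both control siRNA arrays at 24 h, in RNF13 by 0.00263. The 144 h differences were 0.69 ± 0.11 and 0.84 ± 0.16, or 1.62-fold and 1.80-fold. At 72 h they were 0.02 ± 0.11 and 0.01 ± 0.16 (adjusted p = 0.98 and 0.994).

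AFAP1L1 and PCYOX1L were the pair least alike. AFAP1L1 measured 4.39 and 3.96 in untransfected cells, 4.23 and 4.33, 4.04 and 4.14, and 3.99 and 3.96 with control siRNA, and 3.70 and 3.91, 4.39 and 4.44, and 4.91 and 5.08 with CTCF siRNA at 24, 72 and 144 h. PCYOX1L measured 6.10 and 6.07, then 6.44 and 6.09, 6.16 and 6.06, and 6.16 and 6.04, and with CTCF siRNA 6.32 and 6.39, 6.11 and 6.30, and 6.77 and 6.77. AFAP1L1 lay below both control arrays at 24 h with CTCF siRNA and above both at 72 h, a turn that PCYOX1L did not have. The AFAP1L1 differences were −0.47 ± 0.11 at 24 h (unadjusted p = 0.00131; adjusted p = 0.636), 0.32 ± 0.11 at 72 h (95% interval 0.08 to 0.56; adjusted p = 0.451) and 1.02 ± 0.11 at 144 h. Those of PCYOX1L were 0.09 ± 0.13, 0.10 ± 0.13 and 0.67 ± 0.13 (adjusted p = 0.993 and 0.916 at the first 2 times). The 72 h difference of AFAP1L1 exceeded its 24 h difference by 0.80 ± 0.15, unadjusted p = 0.000385, but not after adjustment over all probe sets (adjusted p = 0.713). No member passed this test of the difference between times, and neither did any of the 16098 probe sets, of which 864 had an unadjusted p under 0.05.

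**Figure D1:**
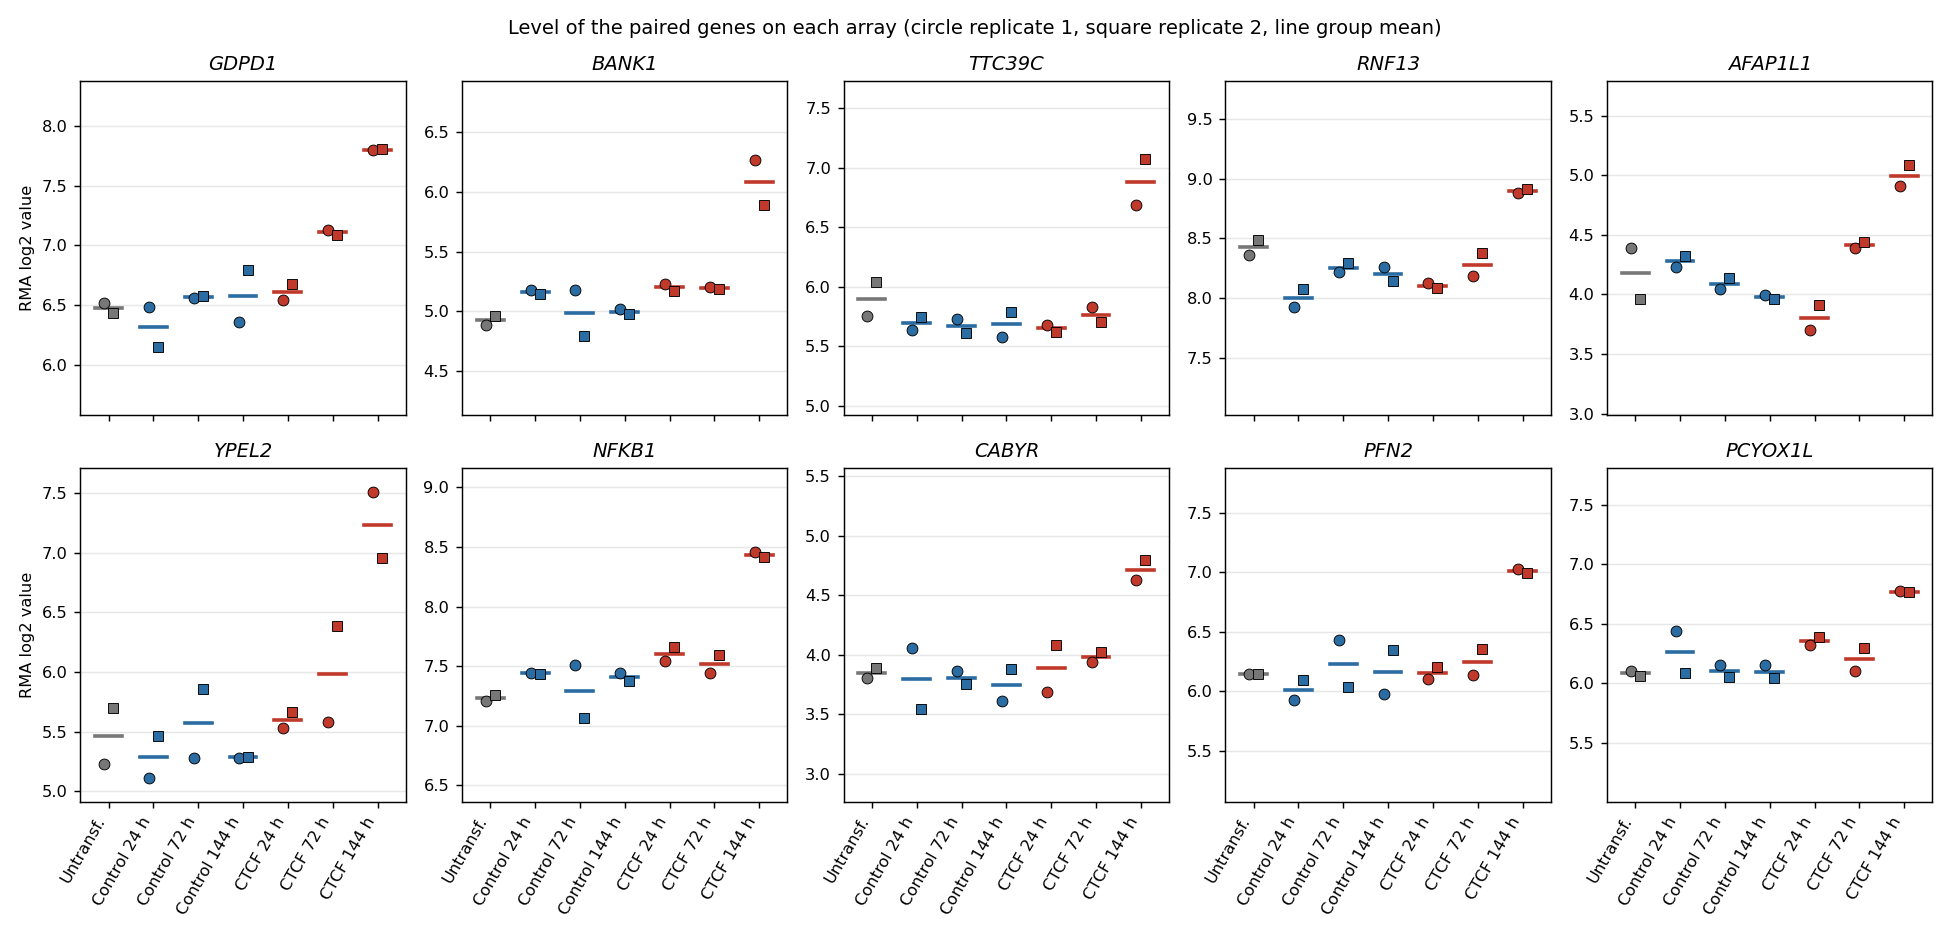
RMA log2 value of each of the 10 genes (y axes, each spanning 2.8 log2 units) on the 14 arrays (x axis, 7 groups; grey untransfected, blue control siRNA, red CTCF siRNA; circles replicate 1, squares replicate 2, lines group means). The 2 CTCF siRNA arrays of 144 h lie above the other 12 arrays in all 10 genes, which were chosen on the 144 h contrast.

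Over all 10 genes, the CTCF siRNA arrays of 144 h lay above the other 12 arrays by 0.33 in PCYOX1L to 0.76 in NFKB1. The genes were chosen on these CTCF siRNA arrays, and the share of all probe sets with such a gap was not counted. Nothing is therefore read from the gap. All 10 genes were past limma's threshold in the upward direction at 144 h, where 2.37% of the named probe sets were called higher and 1.4% lower. The genes were chosen on this contrast, so nothing is read from that count. CABYR and PCYOX1L lost the call whichever array of 144 h was left out. RNF13 kept it only without the first control array and PFN2 only without the second. The differences in these fits ran from 0.83 to 1.10 for CABYR, 0.63 to 0.71 for PCYOX1L, 0.59 to 0.80 for RNF13 and 0.67 to 1.02 for PFN2. Both CTCF siRNA arrays exceeded both control siRNA arrays in 10 of 10 genes at 144 h (24.8% of all probe sets), in 4 at 72 h (GDPD1, CABYR, BANK1 and AFAP1L1; 16% of all) and in 5 at 24 h (GDPD1, YPEL2, RNF13, PFN2 and NFKB1; 18.7% of all). GDPD1 alone was among them at every time. When the groups were ordered by mean, CTCF siRNA at 144 h, the group on which the genes were chosen, came first in each gene. Among the other 6 groups the arrays of neighbours in the order overlapped in 40 of 50 cases. Neither was counted over all probe sets, so neither is read as a trait of these genes.

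**Figure D2:**
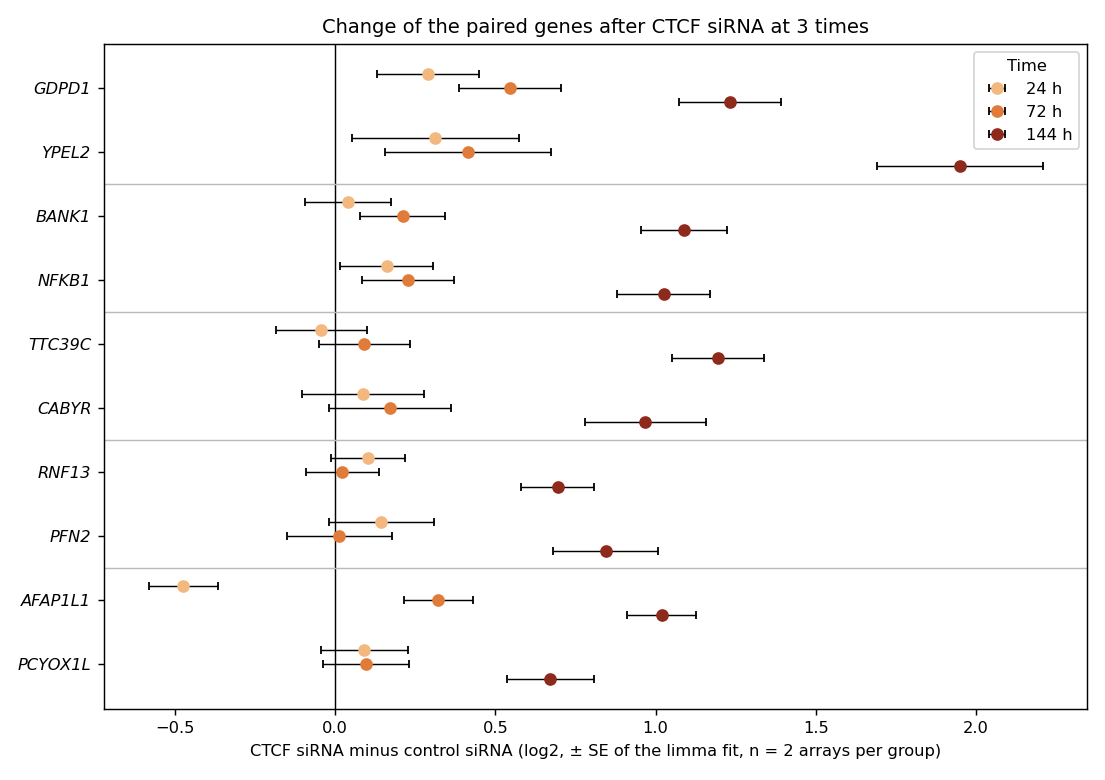
CTCF siRNA minus control siRNA (x axis, log2; points limma estimates, bars ± SE, n = 2 arrays per group) for the 10 genes (y axis, grouped by pair) at 24, 72 and 144 h. The 144 h values, on which the pairs were chosen, run from 0.67 to 1.95, and the 72 h values from 0.01 to 0.54.

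At 72 h, on arrays that the choice of members did not use, the 10 differences were all above 0, from 0.01 to 0.54, with a median of 0.19, where the median of all named probe sets was −0.01 and 46.6% were above 0. None of the 10 passed the threshold (0.0994% of the named probe sets did so upward). The unadjusted 95% interval lay above 0 for GDPD1 and AFAP1L1. Of the 16098 named probe sets, 1292 had an unadjusted p under 0.05 in limma at 72 h, in either direction. At 24 h 8 differences were above and 2 below 0, from −0.47 to 0.31, with a median of 0.10. None passed (0.0124% of all in either direction), and the smallest adjusted p was 0.636. The 72 h differences of NFKB1, TTC39C, RNF13, PFN2 and PCYOX1L changed sign when an array was left out, to between −0.26 (PFN2) and −0.01 (NFKB1).

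Transfection with control siRNA was compared with untransfected cells to learn what the members did without loss of CTCF. RNF13 was the 1 member called, at a lower level after control siRNA at 24 h (−0.42 ± 0.11; adjusted p = 0.0461), where 7.57% of all probe sets were called. This call did not hold with only the 4 arrays compared (adjusted p = 0.177) or without any 1 of these arrays (0.112 to 0.236). No member was called at 72 h (0.478% of all called) or at 144 h (4.14%), and the largest difference at these times was −0.22 for TTC39C at 72 h. At 144 h, where the control cells had been split and transfected again, the members differed from untransfected cells by −0.22 to 0.18. Control siRNA at 24 h minus untransfected cells gave 0.24 ± 0.14 for BANK1 and 0.21 ± 0.14 for NFKB1 (adjusted p = 0.363 and 0.461).

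How the genes of a pair followed each other was described by Pearson's r over the 7 group means, with the place of the partner among all 16097 other probe sets. The arrays share the CTCF siRNA groups of 144 h, on which the pairs were chosen, so these values are a description and have no p. BANK1/NFKB1 had r = 0.992 (place 3 of NFKB1 for BANK1, 4 in the other direction), GDPD1/YPEL2 0.975 (27 and 26), TTC39C/CABYR 0.968 (16 and 40), RNF13/PFN2 0.932 (84 and 121) and AFAP1L1/PCYOX1L 0.735 (819 and 1127). Over the 10 arrays that are not from 144 h, BANK1/NFKB1 had r = 0.922, with NFKB1 at place 6 for BANK1 and BANK1 at place 3 for NFKB1. The low values of both genes were those of the untransfected arrays and the second control array of 72 h. There BANK1 read 4.79 to 4.96 and NFKB1 7.07 to 7.26, and on the other arrays outside 144 h BANK1 spanned only 5.14 to 5.23. Replicates differed in the same direction for both genes in 5 of 7 groups, those of 144 h included, but not with CTCF siRNA at 24 or 72 h. In the other pairs they did so in 3 or 4 of 7 groups. Over the same 10 arrays GDPD1/YPEL2 had 0.54 (921 and 1000) and RNF13/PFN2 0.425, while TTC39C/CABYR had −0.09 and AFAP1L1/PCYOX1L −0.27.

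**Figure D3:**
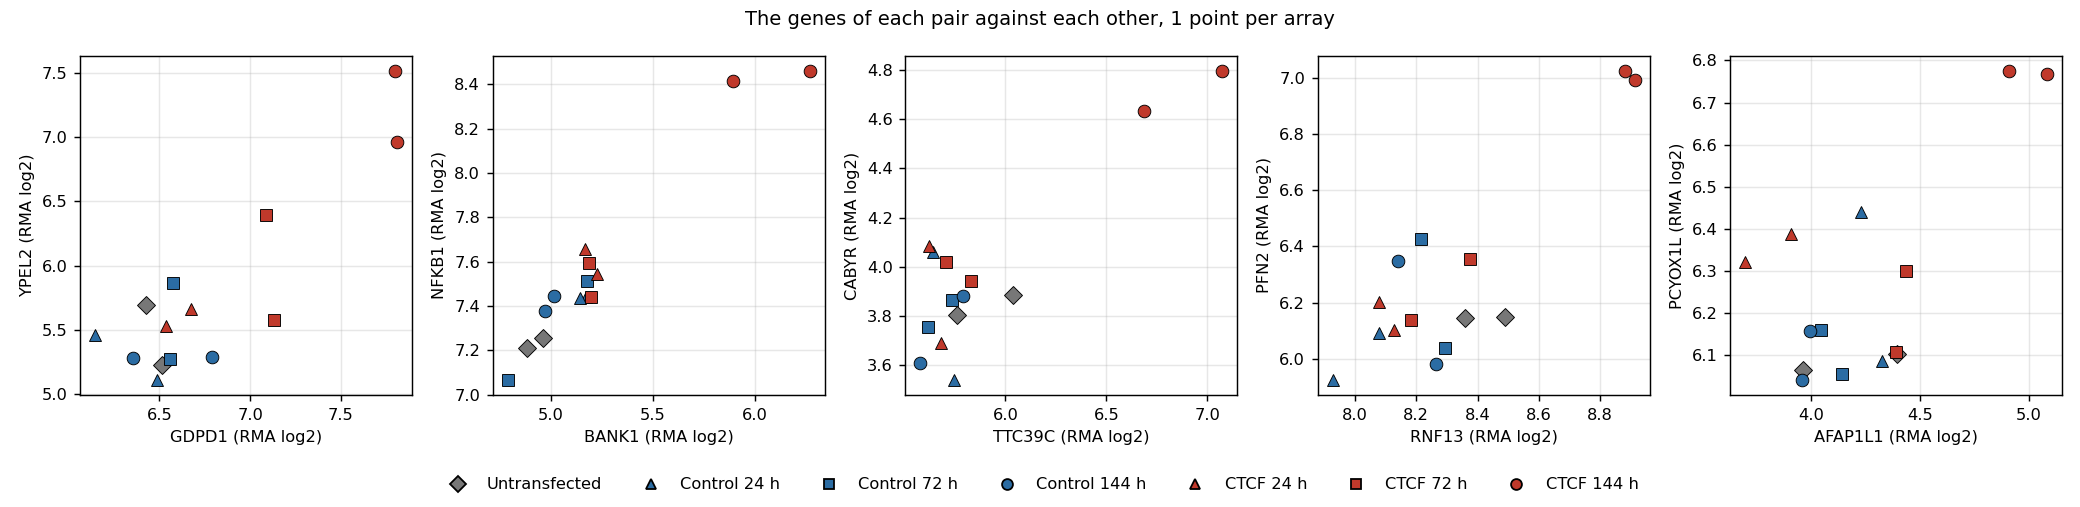
First gene (x axis) against second gene (y axis) of each pair, RMA log2 values, 1 point per array (diamonds untransfected, blue control siRNA, red CTCF siRNA; triangles 24 h, squares 72 h, circles 144 h). The 2 red circles, from the contrast on which the pairs were chosen, stand apart in each pair. Over the 10 arrays outside 144 h, r is 0.922 for BANK1/NFKB1 and −0.27 for AFAP1L1/PCYOX1L.

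The genes with group means most like those of a pair were, for GDPD1/YPEL2, TNPO1, RIPK4 and NXPH4 (r from 0.993 to 0.996), for BANK1/NFKB1, CLVS2, CFAP47 and SGK1 (0.993 to 0.994), for TTC39C/CABYR, GP2, CERS6 and LONRF2 (0.984 to 0.989), for RNF13/PFN2, GTSF1, STX8 and HERC1 (0.985 to 0.99), and for AFAP1L1/PCYOX1L, TTC23L, GALNT12 and MIR4529 (0.982 to 0.988). The 144 h differences of these genes ranged from 0.24 for STX8 to 2.17 for SGK1, a serum- and glucocorticoid-induced kinase.

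Whether a rise was shared by the wider neighbourhood was asked of the 3 nearest measured genes on each side of a pair in RefSeq order. No measured gene lay between the genes of a pair. RefSeq holds 1 to 5 genes there, of which SLC39A8, a zinc and manganese transporter, lies between BANK1 and NFKB1 and GRPEL2, a mitochondrial co-chaperone, between AFAP1L1 and PCYOX1L, and neither was among the named probe sets. Of the 30 flanking genes, 2 were higher and 2 lower at 144 h, and none was called at 24 or 72 h. Of all named probe sets, 2.37% were called higher and 1.4% lower at 144 h. The flanking differences at 144 h ran from −0.68 to 0.54 with a median of 0.09. Genes without a named probe set were passed over, so other genes can lie between a pair and its flanking genes. PPP3CA-DT, an RNA and the nearest measured gene before BANK1, was higher by 0.54 (adjusted p = 0.0493), and RMC1, 2 measured genes before TTC39C, by 0.51 (adjusted p = 0.0414). The nearest measured gene before TTC39C, ANKRD29, was lower (−0.68, adjusted p = 0.0196). The nearest measured gene after CABYR, OSBPL1A, an oxysterol-binding protein, was lower as well (−0.46, adjusted p = 0.0348). PPP3CA-DT, RMC1 and OSBPL1A lost the call without any 1 of the 4 arrays (adjusted p = 0.0682 to 0.299), and ANKRD29 kept it only without the first control array. Around GDPD1/YPEL2, RNF13/PFN2 and AFAP1L1/PCYOX1L no flanking gene passed. Some of the flanking genes there had low mean levels. Examples are MIR301A (1.54) and MIR4729 (2.05) around GDPD1/YPEL2, ANKUB1 (1.74) before RNF13 and SH3TC2 (2.94) before AFAP1L1. Their distance from background is not known, so nothing is read from a lack of change in them.

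**Figure D4:**
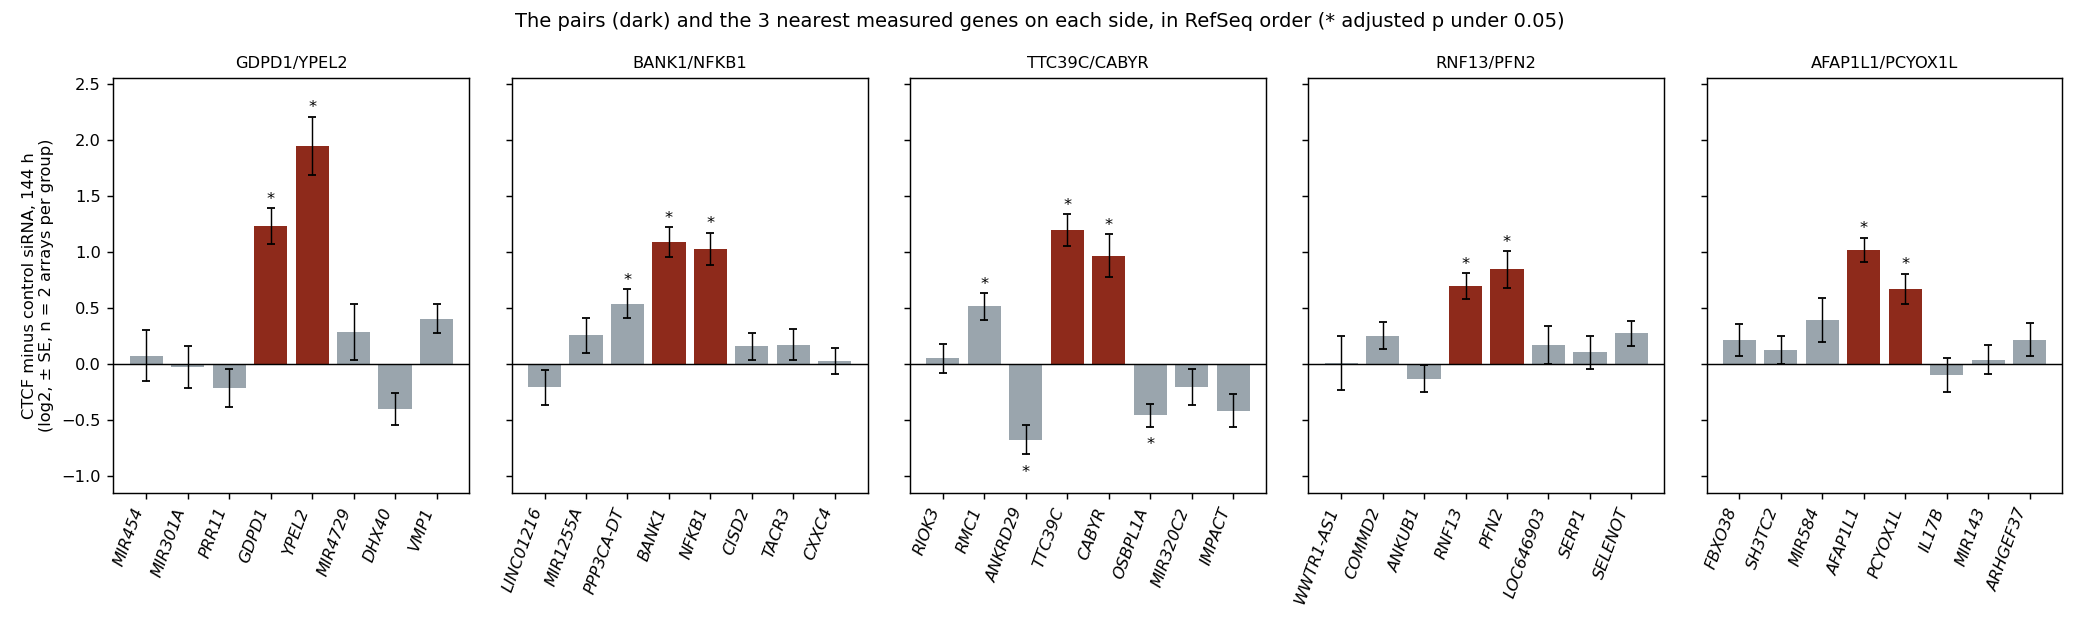
CTCF siRNA minus control siRNA at 144 h (y axis, log2; bars ± SE, n = 2 arrays per group) for each pair (dark) and the 3 nearest measured genes on each side (light), in RefSeq order (x axis); asterisks mark adjusted p under 0.05. The pair genes, which were chosen on this contrast, range from 0.67 to 1.95, and the flanking genes from −0.68 to 0.54.

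As a background for such pairs, all measured genes that are next to each other in RefSeq order were counted. Of 14859 neighbouring pairs, 30 had both genes called higher at 144 h (0.202%), 8 both lower and 9 in opposite directions. The 30 are not all separate: some join a gene and a microRNA, such as MAP1B/MIR4803 and CERS6/MIR4774. CAT, SESTD1 and BANK1 each appear more than once. The 5 pairs are among these 30, at places 3 (GDPD1/YPEL2), 5 (BANK1/NFKB1), 8 (TTC39C/CABYR), 13 (RNF13/PFN2) and 14 (AFAP1L1/PCYOX1L) by the smaller of their differences, and PPP3CA-DT/BANK1 is a further one at place 24. Among measured protein-coding genes alone, 24 of 11892 neighbouring pairs were both higher, the 5 included. None of the 5 was strictly next to each other among all RefSeq genes, where 6 of 4863 pairs were both higher: SLC39A8 and GRPEL2 lie within BANK1/NFKB1 and AFAP1L1/PCYOX1L, and only pseudogenes or RNAs within the other 3 pairs. By difference, YPEL2 stood at place 16 and PCYOX1L at place 232 of the 381 probe sets called higher.

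**Figure D5:**
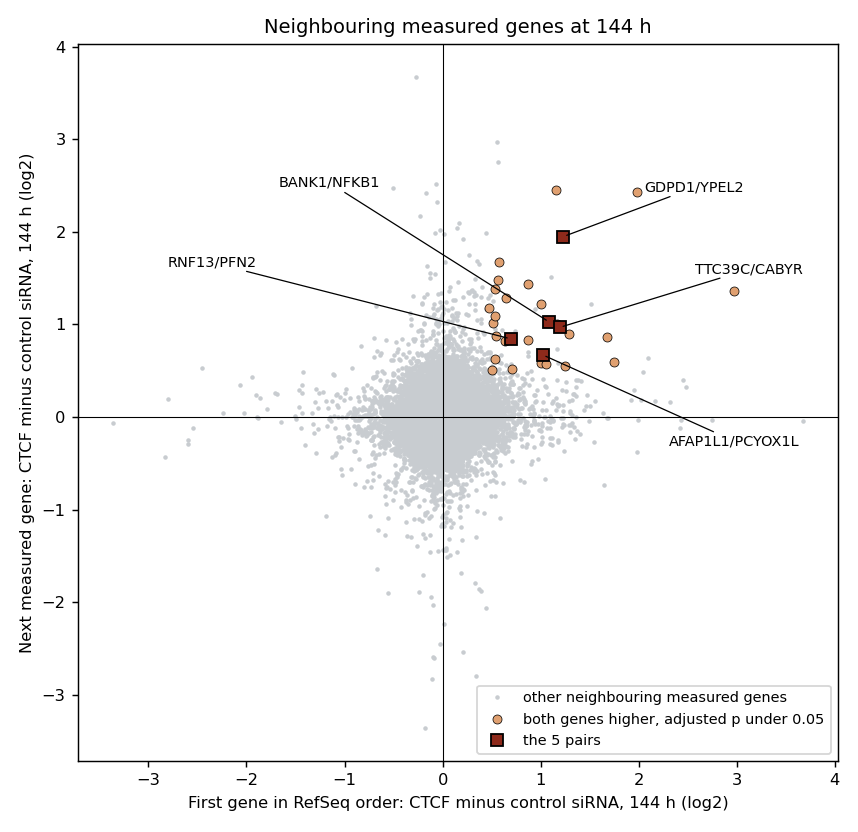
CTCF siRNA minus control siRNA at 144 h for the first gene (x axis, log2) and the next measured gene (y axis, log2) of all 14859 neighbouring pairs; light points are other pairs, circles the pairs with both genes called higher and squares the 5 pairs. The squares lie in the upper right, with GDPD1/YPEL2 highest.

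Relatives and partners of the members were read from 11 lists, and no gene of these lists other than the members passed the threshold at any of the 3 times. Of 23 NF-kB subunits, inhibitors and kinases listed, 12 were measured with NFKB1, without NFKBIA and IKBKB. Of the other 11, 0 passed at 144 h, where MAP3K14, the kinase NIK, differed by 0.62 ± 0.15 (adjusted p = 0.0547) and RELA, the common partner of p50, by −0.09 ± 0.14. Of 22 NF-kB target genes listed, 13 were measured, without NFKBIA and TNFAIP3. None of the 13 passed, with a median of 0.01 at 144 h against 0.00 over all probe sets. Some had low mean levels, such as CXCL8 (1.74) and CCL20 (1.80). These lists cover only a part of NF-kB signalling, and its activity was not measured. In the Yippee family YPEL1, YPEL3, YPEL4 and YPEL5 differed by −0.42, −0.05, −0.06 and 0.23, beside 1.95 for YPEL2. The other measured glycerophosphodiester phosphodiesterases and lysophosphatidic acid enzymes (15) ran from −0.59 to 0.54, the other actin assembly genes (15) from −0.70 to 0.37, with PFN1 at 0.07, and the AFAP and podosome genes (9) from −0.45 to 0.42. The other ubiquitin ligases of the RNF13 kind (9) ran from −0.14 to 0.25, the prenylation genes (4) from −0.46 to 0.39, with PCYOX1 at 0.37, and TTC39A and TTC39B were at 0.28 and 0.05. In the list of cohesin and its regulators, which partner CTCF on chromatin, 1 of 11 genes passed: STAG1, a cohesin subunit, was higher by 1.21 ± 0.12 at 72 h (adjusted p = 0.00618) and 1.46 ± 0.12 at 144 h (adjusted p = 0.000208). Its call at 72 h was lost with all rows tested (adjusted p = 0.0519), with the 4 arrays of that time alone (0.137) and without the second control or the second CTCF siRNA array (0.0926 and 0.123).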

How the data were processed

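Expression was measured in LNCaP cells on 14 arrays, 2 in each of 7 groups. RMA log2 values (background correction, quantile normalisation, median polish) were made by the authors in R 3.2.5, and the deposited table holds them for 53617 rows. Names came from the platform annotation given with the data, 1 gene each for 16098 probe sets; the other 37519 rows are unnamed in it. No genome build is stated for the array values, and RefSeq (GRCh38.p14) served for gene order and, with its own coordinates, for promoters.

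Tests used limma 3.58.1 in R 4.3.3 (lmFit, eBayes, two-sided), with Benjamini-Hochberg adjustment over the 16098 probe sets and a threshold of 0.05. CTCF and control siRNA were compared in a fit of 12 arrays with 6 groups, and control siRNA and untransfected cells in a fit of all 14 arrays with 7 groups, both with the replicate number as a block, as in the study's methods. Errors are standard errors (SE) of the fit, with a median of 0.14, and intervals are 95% intervals. An array has no read depth, and the number of arrays limits the precision. The script was checked on simulated arrays.

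The members and lists were chosen with earlier results of these data known. Named are the members, CTCF, the 3 nearest measured genes on each side of a pair, up to 4 called genes per list, and the 3 genes most like each pair. CD22, PAX5 and FOLH1, and genes named in lists without a call, were picked after their values were seen. Alternatives changed the block, the probe sets tested, the filter, the scaling, the prior variance and the arrays in the fit.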

Additional observations from a re-analysis of the deposited data

Results flagged for a closer look

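AFAP1L1 was the member whose replicates all moved one way at one time and the opposite way at another. With CTCF siRNA it read −0.53 and −0.42 against control siRNA in replicates 1 and 2 at 24 h (fit −0.47 ± 0.11), 0.35 and 0.30 at 72 h (0.32 ± 0.11), and 0.91 and 1.12 at 144 h (1.02 ± 0.11). The difference between 72 and 24 h, 0.80 ± 0.15, had an unadjusted p of 0.000385 and an adjusted p of 0.713 in limma, so it failed the correction over all probe sets. Without any single array of these times it ran from 0.73 to 0.86. The difference between 144 and 24 h was not tested, because the gene was chosen on the 144 h values.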

How the results depend on the processing

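Values kept their sign in every alternative for the 10 members at 144 h, on which they were chosen. All 10 passed in the fits without the replicate block, with centred arrays, with limma-trend, with robust eBayes, with the 4 arrays of 144 h alone and with all 14 arrays, 7 with all rows tested, and 8 with only probe sets above the median level, a set that does not hold CABYR and AFAP1L1. Leaving out 1 array of 144 h left 6 to 7 past the threshold. The counts of all probe sets moved more. At 24 h 2 were called, but 0 with all rows, 5 with limma-trend, 1 with the 4 arrays alone and 0 to 1 without 1 array. At 72 h 30 were called, but 4 with all rows, 46 above the median level, 62 with limma-trend, 0 with the 4 arrays alone and 0 to 30 without 1 array. At 144 h 606 were called, and 210 to 245 without 1 array. Against untransfected cells, 1218 were called at 24 h (618 with the 4 arrays alone, 306 to 587 without 1 array), 77 at 72 h (1 with all rows, 237 above the median level, 216 with limma-trend, 207 with 4 arrays, 0 to 56 without 1 array) and 667 at 144 h (367 with all rows, 1010 above the median level, 72 to 311 without 1 array). Neighbouring pairs with both genes higher numbered 30, and 6 when strictly next to each other. Apart from the fewer arrays or other rows that some of these fits hold, the cause was not tested. RNF13 at 24 h against untransfected cells lost its call with all rows (adjusted p = 0.12).

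The study's methods enter the replicates as pairs. The correlation of same-numbered deviations between groups ran from −0.0856 to 0.228 over 21 pairs of groups and was over 0.1 in 2, control against CTCF siRNA at 72 h (0.228) and at 144 h (0.154), with 0.0426 at 24 h. Without the replicate block 2, 40 and 648 probe sets were called at 24, 72 and 144 h and 1246, 92 and 687 against untransfected cells, and the difference between times had 0 calls. The block changed no call of a member.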
